A study of Mus musculus with 22 samples.

Results

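The 10 genes described here act in the endoplasmic reticulum (ER), where secreted and membrane proteins fold, and belong to the machinery that a cell raises when unfolded proteins gather there. They were taken by symbol from the table of 55573 genes: Hspa5, Hsp90b1, Calr, Dnajb9, Sdf2l1, Pdia4, Creld2, Herpud1, Edem1 and Xbp1. All 10 were found and all 10 were among the 14062 genes tested, which needed a mean of at least 10 counts over all libraries. The libraries were mRNA-seq of whole liver from 22 C57BL/6 mice, 1 library per mouse. Liver-Flcn-/- mice (knockout mice) carried floxed Flcn alleles and Cre under the hepatocyte promoter of albumin, and the controls, called Cre mice, carried the same Albumin-Cre with wild-type Flcn, so that both genotypes held Cre. Mice received control chow or a methionine and choline deficient diet rich in fat and sucrose (MCD) for 6 weeks from 6 weeks of age. The groups were Cre mice on chow (n = 6), Cre mice on MCD (n = 5), liver-Flcn-/- mice on chow (n = 5) and liver-Flcn-/- mice on MCD (n = 6), all 3 months old at collection. The deletion is limited to cells in which the albumin promoter is active, and the measured RNA also came from other liver cells, so less RNA per cell and fewer cells of a type cannot be told apart. Between 13751347 and 21144388 reads per library were counted on genes, and the 10 genes took 0.330 to 0.619% of them.

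Unfolded protein in the ER is sensed by IRE1 (Ern1), PERK (Eif2ak3) and ATF6. IRE1 splices the Xbp1 transcript into the form that encodes an active transcription factor, cleaved ATF6 enters the nucleus, and PERK phosphorylates a translation initiation factor, which favours translation of ATF4. XBP1 and ATF6 act on genes for chaperones, disulfide isomerases and the machinery that takes misfolded proteins out for degradation. The hepatocyte is a secretory cell that makes most plasma proteins, and hepatic ER stress has long been studied in fatty liver. The counts are per gene, so spliced and unspliced Xbp1 transcripts were not separated here, and neither protein levels nor sensor activity were measured.

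Promoter sequence was examined because several of these genes moved together across mice. In RefSeq (GRCm38.p6), all 10 genes had a promoter window of 250 bases before to 50 bases after the start of transcription, and 3 motifs were searched on both strands. The ER stress response element (ERSE), read as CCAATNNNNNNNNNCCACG, was present in the windows of 4 of the 10 genes and in 39 of all 32851 windows (0.119%). The element ERSE-II, read as ATTGG, any base, then CCACG, was present in 1 of the 10 and in 12 of all windows (0.0365%), and the core of the unfolded protein response element, TGACGTGG, was in none of the 10 and in 222 of all windows (0.676%). No window of the 10 genes held more than 1 of the 3 kinds of motif, so no matches of different motifs overlapped. The matches are printed 5′ to 3′ on the strand of the gene, with the motif in capitals and 5 flanking bases on each side in lower case. Those of Hsp90b1 (second match), Calr and Creld2 lie on the opposite strand and therefore read as the reverse complement, beginning CGTGG and ending ATTGG.
Hspa5, ERSE, chr2:34772020-34772048, 65 to 47 bases before the start: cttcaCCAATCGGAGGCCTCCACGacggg
Hsp90b1, ERSE, chr10:86705633-86705661, 212 to 194 bases before the start: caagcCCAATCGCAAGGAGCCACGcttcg
Hsp90b1, ERSE, chr10:86705528-86705556, 107 to 89 bases before the start: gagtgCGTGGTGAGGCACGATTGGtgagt
Calr, ERSE, chr8:84847070-84847098, 162 to 144 bases before the start: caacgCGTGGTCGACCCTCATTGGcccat
Creld2, ERSE, chr15:88819515-88819543, 126 to 108 bases before the start: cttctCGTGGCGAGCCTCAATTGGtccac
Herpud1, ERSE-II, chr8:94386372-94386392, 52 to 42 bases before the start: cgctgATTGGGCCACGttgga
Coordinates include the flanks, and distances refer to the motif. GENCODE begins the interval of Hspa5 upstream of the RefSeq start, so its match falls inside the GENCODE gene interval. Hspa5, Herpud1 and Creld2 lie on the plus strand and Hsp90b1 and Calr on the minus strand. For Edem1, Sdf2l1, Pdia4, Dnajb9 and Xbp1 these letters did not occur in the window, which covers only the bases next to the start. A match is a description of the sequence and does not show that a factor bound there.

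To compare levels between genes, CPM (counts scaled to library size, with the composition factors of edgeR's TMM method) were divided by the length of all exons in kb. In Cre mice on chow the highest levels per kb were those of Hsp90b1 (399 ± 62.3 CPM per kb, SD, n = 6), Calr (388 ± 106) and Hspa5 (295 ± 125). The ranges of these 3 abundant chaperones overlapped. Herpud1 (136 ± 55.6), Pdia4 (132 ± 36.2) and Xbp1 (76.6 ± 25.4) followed, and Sdf2l1 (38.8 ± 18.2), Edem1 (33.9 ± 5.49), Creld2 (28.4 ± 16.6) and Dnajb9 (27.7 ± 10.2) were lowest and also overlapped. In knockout mice on MCD, Hspa5 was first (246 ± 23.9 CPM per kb, n = 6), ahead of Calr (234 ± 30.6) and Hsp90b1 (219.6 ± 15.2). Sdf2l1 moved from seventh place in both chow groups to last in both MCD groups, at 12.7 ± 1.24 CPM per kb in Cre mice and 6.97 ± 1.29 in knockout mice.

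**Figure D1:**
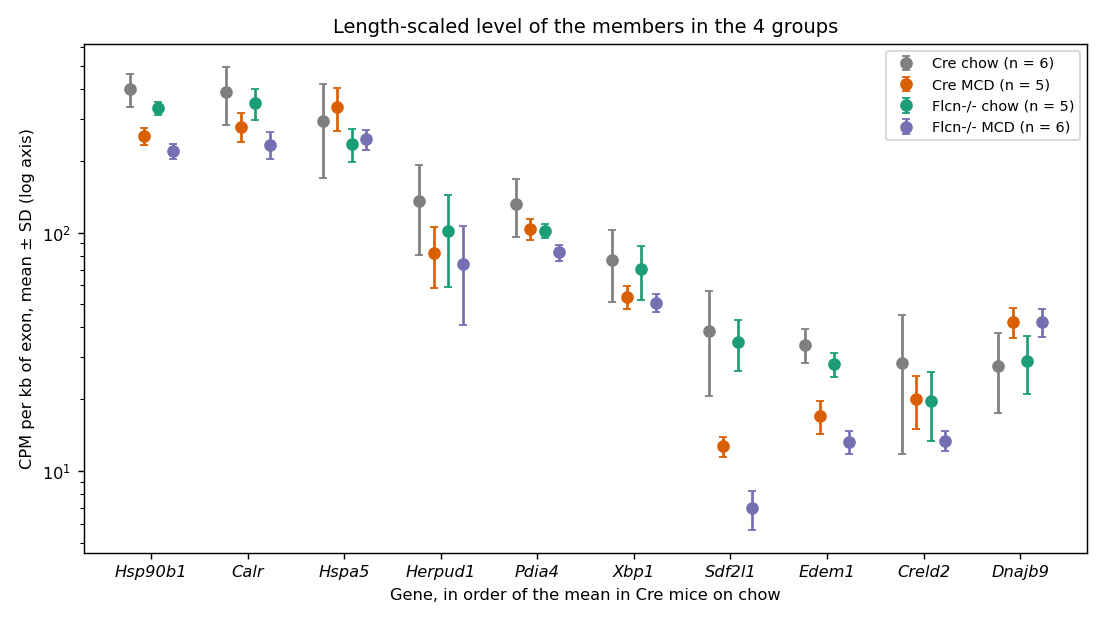
Level of the 10 genes per kb of exon in the 4 groups (CPM per kb, log axis, mean ± SD over 5 or 6 mice). Hsp90b1, Calr and Hspa5 lay highest in every group, and Sdf2l1 had the widest spacing between groups.

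The targeted gene Flcn, a negative regulator of TFE3 and TFEB and partner of the Rag GTPases, was read first as a check of the labels. Flcn (ENSMUSG00000032633, GRCm38 chr11:59791408-59810016, minus strand) ranged from 26.1 to 40.2 CPM in Cre mice on chow (median 31.8, n = 6), and the 5 on MCD stood at 18.2, 23.6, 31.7, 32.5 and 39.9 CPM. In knockout mice the 5 chow values were 16.7, 19.4, 19.96, 21.8 and 24.2 CPM, and the range was 17.6 to 32.6 CPM on MCD (median 26.6, n = 6). On chow the genotypes did not overlap, with all knockout livers lower (log2 fold change −0.63 ± 0.17, adjusted p = 0.0249 by edgeR, a quasi-likelihood test, with p-values adjusted after Benjamini and Hochberg across all tested genes). On MCD the genotypes overlapped (log2 fold change −0.16 ± 0.17, adjusted p = 0.567 by edgeR). The Cre-mediated deletion removes exon 7, and the deposited counts are summed over all exons and all liver cells, so they check the genotype labels only in part. Without Cre mouse 6 on chow, or without knockout mouse 3 or 4 on chow, the chow difference had an adjusted p of 0.0564 to 0.0688 by edgeR. The call was also lost in the females alone (adjusted p = 0.0984 by edgeR) and in the males alone (adjusted p = 0.238), with a replicate block (adjusted p = 0.0528) and with libraries scaled by their totals alone (adjusted p = 0.0671), while the log2 fold change stayed below 0.

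Of the hepatocyte markers listed, 9 of 10 were found and all 9 were present in every group, with albumin (Alb) most abundant. Sex was read from Xist and 4 Y-linked genes, which gave 10 male and 12 female mice, with both sexes in every group. On chow the 5 male mice (Cre mice 1, 5 and 6, knockout mice 1 and 3) were also the 5 with a low share of uniquely mapped reads, so that sex and mapping cannot be told apart there. Cre mouse 3 on MCD stood apart by skeletal muscle RNA (2883 summed CPM of 10 muscle genes, against 141 in Cre mouse 4 on MCD and at most 66.4 in any other mouse). Without those 5 male chow libraries the chow difference in Flcn was −0.55 (log2) and did not pass (adjusted p = 0.241 by edgeR). Calls among the 10 genes that changed without them are given with each gene.

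The first question was how the MCD diet changed these genes in each genotype. In Cre mice, 7 of the 10 differed between diets at an adjusted p of 0.05: Hsp90b1, Calr, Sdf2l1, Pdia4, Edem1 and Xbp1 were lower on MCD, and Dnajb9 was higher. In knockout mice 6 differed: Hsp90b1, Calr, Sdf2l1, Edem1 and Xbp1 were lower and Dnajb9 was higher. Many other genes moved as well: 28.2% of all tested genes were lower and 29.3% higher on MCD in Cre mice, and 22.5% were lower and 22.5% higher in knockout mice. The median log2 fold change of the 10 genes was −0.51 in both genotypes, against 0.01 and 0.00 for all tested genes. The values in each mouse show how evenly this was spread.

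**Figure D2:**
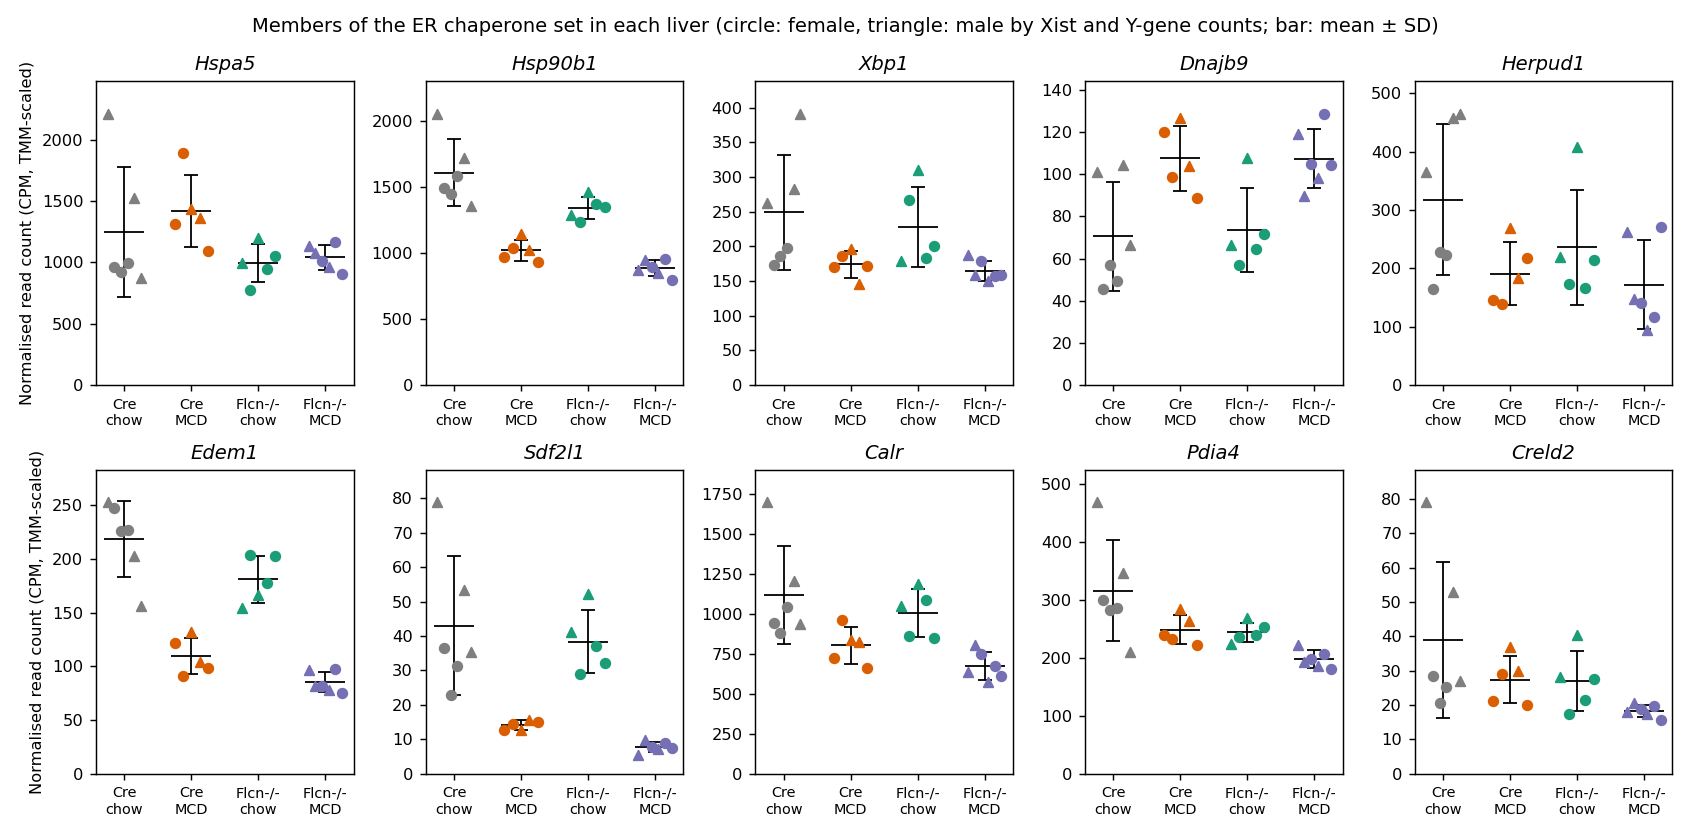
CPM of each of the 10 genes in each of the 22 mice, by group (circles are female and triangles male mice, lines are the mean ± SD). Sdf2l1, Edem1 and Hsp90b1 on MCD lay below all chow mice of the same genotype, Dnajb9 had a higher mean on MCD, and Hspa5 overlapped between diets.

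Sdf2l1, a cofactor of ER chaperones that holds aggregation-prone proteins in solution, had the largest diet difference of the 10. Sdf2l1 (ENSMUSG00000022769, GRCm38 chr16:17130138-17132383, minus strand) ranged from 22.8 to 78.8 CPM in Cre mice on chow (median 35.9, n = 6), and the 5 on MCD stood at 12.6, 12.7, 14.6, 14.9 and 15.7 CPM. Knockout livers held 28.9, 32.1, 37.2, 41.2 and 52.3 CPM on chow (n = 5) and 5.57 to 9.73 CPM on MCD (median 7.58, n = 6). No mouse on MCD reached the lowest mouse on chow of its genotype. The MCD level was 0.328 times the chow level in Cre mice (log2 fold change −1.61 ± 0.24, adjusted p = 7.19e-06 by edgeR) and 0.202 times in knockout mice (log2 fold change −2.31 ± 0.24, adjusted p = 1.21e-07 by edgeR). The lowest library held 113 counts of this gene.

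Edem1, a lectin-like protein that directs misfolded glycoproteins to degradation, was also lower on MCD. Edem1 (ENSMUSG00000030104, GRCm38 chr6:108828641-108859356, plus strand) ranged from 156 to 253 CPM in Cre mice on chow (median 227, n = 6), and the 5 on MCD stood at 91.1, 98.9, 104, 122 and 132 CPM. The knockout livers on chow (n = 5) reached 155, 167, 177, 203 and 203 CPM, compared with 75.7 to 97.7 CPM on MCD (median 81.9, n = 6). The diets did not overlap in either genotype. The MCD level was 0.501 times the chow level in Cre mice (log2 fold change −0.999 ± 0.12, adjusted p = 7.43e-07 by edgeR), and in knockout mice the log2 fold change was −1.09 ± 0.12 (adjusted p = 3.64e-07 by edgeR).

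Hsp90b1 (GRP94), the HSP90 chaperone of the ER, fell less far but with little spread. Hsp90b1 (ENSMUSG00000020048, GRCm38 chr10:86690209-86705509, minus strand) ranged from 1357 to 2058 CPM in Cre mice on chow (median 1541, n = 6), and the 5 on MCD stood at 933, 974, 1027, 1036 and 1143 CPM. In knockout mice the 5 chow values were 1236, 1289, 1351, 1375 and 1460.4 CPM, and the range was 793 to 954 CPM on MCD (median 883, n = 6). Every MCD mouse was below every chow mouse of its genotype (exact permutation p = 0.00216 in each genotype, two-sided, the smallest that 6 against 5 mice can give). The log2 fold change was −0.66 ± 0.10 in Cre mice (adjusted p = 7.41e-06 by edgeR) and −0.60 ± 0.10 in knockout mice (adjusted p = 3.03e-05 by edgeR).

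Calr (calreticulin), the lectin chaperone that folds monoglucosylated glycoproteins and binds calcium, was lower on MCD in both genotypes. Calr (ENSMUSG00000003814, GRCm38 chr8:84841850-84846934, minus strand) ranged from 878 to 1696 CPM in Cre mice on chow (median 991, n = 6), and the 5 on MCD stood at 663, 725, 826, 838 and 958 CPM. Knockout livers held 846, 858, 1051, 1082 and 1185 CPM on chow (n = 5) and 573 to 806 CPM on MCD (median 652, n = 6). Cre mice overlapped between diets, and knockout mice did not. The tests gave log2 fold change −0.48 ± 0.15, adjusted p = 0.0109 in Cre mice and log2 fold change −0.58 ± 0.15, adjusted p = 0.00365 in knockout mice by edgeR. With libraries scaled by their totals alone, neither call held (adjusted p = 0.806 and 0.0907 by edgeR). The Cre call was also lost without the 5 male chow libraries (−0.26, adjusted p = 0.13 by edgeR) and within females (adjusted p = 0.145) or males (adjusted p = 0.0781) alone.

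Hspa5 (BiP), the HSP70 chaperone of the ER that also binds the 3 sensors, differed from the genes above. Hspa5 (ENSMUSG00000026864, GRCm38 chr2:34771970-34777547, plus strand) ranged from 872 to 2212 CPM in Cre mice on chow (median 979, n = 6), and the 5 on MCD stood at 1095, 1311, 1358, 1432 and 1891 CPM. The knockout livers on chow (n = 5) reached 776, 942, 995, 1053 and 1194 CPM, compared with 902 to 1163 CPM on MCD (median 1042, n = 6). Cre mouse 1 on chow, at 2212 CPM, was the highest of all 22 mice, and the diets overlapped in both genotypes. No difference between diets passed the test in Cre mice (log2 fold change 0.18 ± 0.20, adjusted p = 0.447 by edgeR, 95% interval −0.24 to 0.60) or in knockout mice (log2 fold change 0.07 ± 0.20, adjusted p = 0.799 by edgeR, 95% interval −0.35 to 0.49). Hspa5 in Cre mice passed as higher on MCD without Cre mouse 1 on chow (0.42, adjusted p = 0.0262 by edgeR), without the 5 male chow libraries (0.56, adjusted p = 0.00543 by edgeR), in females alone (0.58, adjusted p = 0.0197) and with scaling by totals alone (0.62, adjusted p = 0.0096 by edgeR). In males alone it was −0.12 and did not pass (adjusted p = 0.799 by edgeR).

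Dnajb9 (ERdj4), an HSP40 cochaperone that recruits BiP and is a known target of XBP1, rose with MCD in both genotypes, as no other of the 10 did. Dnajb9 (ENSMUSG00000014905, GRCm38 chr12:44205559-44210326, minus strand) ranged from 45.4 to 104 CPM in Cre mice on chow (median 61.8, n = 6), and the 5 on MCD stood at 88.6, 98.6, 104, 119.9 and 127 CPM. In knockout mice the 5 chow values were 57.2, 64.5, 66.5, 71.7 and 108 CPM, and the range was 89.7 to 129 CPM on MCD (median 105, n = 6). On chow, the 2 highest Cre mice (1 and 5, at 101 and 104 CPM) and knockout mouse 3 (108 CPM) reached the MCD range. The tests gave log2 fold change 0.61 ± 0.20, adjusted p = 0.0122 in Cre mice and log2 fold change 0.55 ± 0.20, adjusted p = 0.0304 in knockout mice by edgeR. In knockout mice the call was lost without any 1 of 6 libraries (mice 1, 2, 4 and 5 on chow, 1 and 5 on MCD), with an adjusted p of up to 0.0868 by edgeR. In males alone neither call held (0.37, adjusted p = 0.281 in Cre mice and 0.21, adjusted p = 0.602 in knockout mice by edgeR).

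Pdia4 (ERp72) and Creld2, both of which catalyse disulfide exchange in folding proteins, were close to the threshold or above it. Pdia4 (ENSMUSG00000025823, GRCm38 chr6:47796141-47813430, minus strand) ranged from 210.1 to 469 CPM in Cre mice on chow (median 294, n = 6), and the 5 on MCD stood at 223, 232, 239, 264 and 285 CPM. Knockout livers held 224, 237, 239.5, 253 and 268 CPM on chow (n = 5) and 181 to 223 CPM on MCD (median 196, n = 6). Cre mice overlapped between diets, and every knockout mouse on MCD was below those on chow. Pdia4 fell in Cre mice (log2 fold change −0.35 ± 0.13, adjusted p = 0.033 by edgeR) and did not pass in knockout mice (log2 fold change −0.30 ± 0.13, adjusted p = 0.0708 by edgeR). The Cre call held in 5 of 12 alternatives. It did not hold with limma-voom (adjusted p = 0.0531), without a filter on low counts (adjusted p = 0.0773 by edgeR), with at least 10 counts in every library (adjusted p = 0.0617), with only the groups compared (adjusted p = 0.106) or in males alone (adjusted p = 0.436). Nor did it hold without any 1 of 5 libraries (Cre mice 1 and 5 on chow, 1, 2 and 5 on MCD, adjusted p of up to 0.116 by edgeR), without the 5 male chow libraries (−0.23, adjusted p = 0.0511 by edgeR), or with scaling by totals alone, where the sign turned (0.08, adjusted p = 0.617 by edgeR). In knockout mice Pdia4 passed as lower without those 5 libraries (−0.30, adjusted p = 0.0132 by edgeR), with only the groups compared in the fit (adjusted p = 0.00555), in females alone (adjusted p = 0.0174) and in 2 of the 22 fits that left out 1 mouse (adjusted p of 0.019 to 0.032).

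Creld2 (ENSMUSG00000023272, GRCm38 chr15:88819646-88826683, plus strand) ranged from 20.6 to 79 CPM in Cre mice on chow (median 27.7, n = 6), and the 5 on MCD stood at 20.03, 21.2, 29, 29.98 and 36.7 CPM. The knockout livers on chow (n = 5) reached 17.3, 21.5, 27.5, 28.2 and 40.2 CPM, compared with 15.6 to 20.4 CPM on MCD (median 18.4, n = 6). Cre mice 1 and 5 on chow were the highest 2 of all mice for Creld2, and the diets overlapped in both genotypes. Neither difference passed the test (log2 fold change −0.50 ± 0.28, adjusted p = 0.131 in Cre mice and log2 fold change −0.56 ± 0.28, adjusted p = 0.111 in knockout mice by edgeR). Creld2 in knockout mice passed with only the groups compared in the fit (adjusted p = 0.0162 by edgeR), with sex as a covariate (adjusted p = 0.0459) and, among the fits that left out 1 mouse, when Cre mouse 1 on chow was left out (adjusted p = 0.0454). In Cre mice the difference was 0.14 without the 5 male chow libraries and did not pass there either.

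Herpud1, a membrane protein of the degradation complex, varied widely among chow mice. Herpud1 (ENSMUSG00000031770, GRCm38 chr8:94386438-94395377, plus strand) ranged from 165 to 465 CPM in Cre mice on chow (median 297, n = 6), and the 5 on MCD stood at 139, 146, 183, 217 and 269.7 CPM. In knockout mice the 5 chow values were 166, 173, 215, 220.2 and 408 CPM, and the range was 94 to 272 CPM on MCD (median 143, n = 6). The 3 highest Cre mice on chow (1, 5 and 6) and knockout mouse 3 on chow lay far above the rest of their groups. The diet differences did not pass the test (log2 fold change −0.73 ± 0.32, adjusted p = 0.0533 in Cre mice and log2 fold change −0.46 ± 0.31, adjusted p = 0.241 in knockout mice by edgeR). In Cre mice the difference passed in 8 of the 22 fits that each left out 1 mouse and with only the groups compared in the fit (adjusted p = 0.0458 by edgeR). It was −0.11 without the 5 male chow libraries (adjusted p = 0.783 by edgeR), and in knockout mice it was −0.07 in females alone (adjusted p = 0.859 by edgeR).

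Xbp1, the transcription factor of the IRE1 branch, was lower on MCD in both genotypes with overlapping groups. Xbp1 (ENSMUSG00000020484, GRCm38 chr11:5520659-5525893, plus strand) ranged from 173 to 391 CPM in Cre mice on chow (median 230.4, n = 6), and the 5 on MCD stood at 145, 170.3, 172, 187 and 196 CPM. Knockout livers held 179, 183, 201, 266 and 311 CPM on chow (n = 5) and 149.5 to 187 CPM on MCD (median 158, n = 6). The highest 3 Cre mice on chow (1, 5 and 6) were above all other Cre mice. The tests gave log2 fold change −0.52 ± 0.18, adjusted p = 0.0183 in Cre mice and log2 fold change −0.47 ± 0.18, adjusted p = 0.0372 in knockout mice by edgeR. The Cre call was lost without Cre mouse 6 on chow or Cre mouse 4 on MCD (adjusted p of up to 0.0648 by edgeR), and without the 5 male chow libraries the log2 fold change was −0.10 (adjusted p = 0.538 by edgeR). It was also lost in females alone (−0.07, adjusted p = 0.67 by edgeR) and with scaling by totals alone (−0.08, adjusted p = 0.673). In knockout mice it was lost without any 1 of 6 libraries (mice 2 and 3 on chow, 2, 4, 5 and 6 on MCD, adjusted p of up to 0.142 by edgeR), without a filter on low counts (adjusted p = 0.0534), in males alone (adjusted p = 0.135) and with scaling by totals alone (adjusted p = 0.324).

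TMM scaling factors differed by diet, at 0.815 to 0.969 on chow and 1.06 to 1.20 on MCD. With scaling by library totals alone, the median log2 fold change of all tested genes moved to 0.43 in Cre mice and 0.27 in knockout mice, and the split of calls to 56.2% higher and 12.4% lower in Cre mice and 41.3% higher and 12.3% lower in knockout mice. The median of the 10 genes was then −0.07 and −0.25. Hspa5 and Dnajb9 were called higher and Hsp90b1, Edem1 and Sdf2l1 lower in Cre mice, and in knockout mice Dnajb9 higher and those same 3 genes lower. The calls of Hsp90b1, Edem1, Sdf2l1 and Dnajb9 thus held under both scalings. Calr (−0.04 in Cre and −0.31 in knockout mice) and Xbp1 (−0.08 and −0.20) kept their direction but not their calls. Without the 5 male chow libraries 5 of the 10 were called in Cre mice, 2 higher (Hspa5 and Dnajb9) and 3 lower (Hsp90b1, Edem1 and Sdf2l1), with a median of −0.17, where 26.3% of all tested genes were higher and 24.8% lower.

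The second question was how loss of Flcn changed the genes on each diet. On chow none of the 10 passed the test by edgeR, limma-voom or DESeq2, while 3 had an unadjusted p under 0.05, and 3.1% of all tested genes were lower and 5.52% higher in knockout mice. Of the 10 log2 fold changes 9 were below 0, with a median of −0.27 (all tested genes −0.03). This median was −0.15 without Cre mouse 1 on chow, −0.11 without the 5 male chow libraries and −0.10 in females alone. The smallest adjusted p-values were those of Pdia4 (−0.37 ± 0.13, adjusted p = 0.0906 by edgeR) and Hsp90b1 (−0.26 ± 0.10, adjusted p = 0.0923 by edgeR). Pdia4 passed without Cre mouse 6 on chow (−0.47, adjusted p = 0.0171 by edgeR).

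On MCD 2 of the 10 were lower in knockout mice, where 8.53% of all tested genes were lower and 8.06% higher. Sdf2l1 was lower in all 6 knockout mice than in all 5 Cre mice (log2 fold change −0.87 ± 0.23, adjusted p = 0.0133 by edgeR, exact permutation p = 0.00216), and this call held in all 22 fits that left out 1 mouse. Edem1 was lower with overlapping groups (log2 fold change −0.36 ± 0.12, adjusted p = 0.0431 by edgeR), and its call was lost in 9 of those 22 fits (without Cre mouse 3 on chow, Cre mice 1, 3 and 4 on MCD, knockout mouse 4 on chow and knockout mice 2, 3, 4 and 6 on MCD), with an adjusted p of up to 0.116. It was also lost in females alone (adjusted p = 0.161 by edgeR), in males alone (adjusted p = 0.211) and without a filter on low counts (adjusted p = 0.0995). Nor did the Edem1 call hold with a replicate block (adjusted p = 0.114 by edgeR) or with scaling by totals alone (adjusted p = 0.053). The call of Sdf2l1 was lost in males alone (−0.93, adjusted p = 0.131 by edgeR). All 10 log2 fold changes were below 0 (those of Herpud1 and Dnajb9 were 0.07 and 0.14 in females alone, and both also turned above 0 in fits that left out 1 mouse), 6 with an unadjusted p under 0.05, and the median was −0.29 (all tested genes −0.01). Pdia4 was lower in every knockout mouse than in any Cre mouse but did not pass after adjustment (log2 fold change −0.33 ± 0.13, adjusted p = 0.098 by edgeR), and Hspa5 (log2 fold change −0.45 ± 0.20, adjusted p = 0.136) and Creld2 (log2 fold change −0.58 ± 0.28, adjusted p = 0.166) did not pass by edgeR either. Without the 5 male chow libraries, which enter this comparison only through the shared fit, 5 were called lower (Hspa5, Edem1, Sdf2l1, Pdia4 and Creld2), where 10.2% of all tested genes were lower and 9.08% higher. Without Cre mouse 3 on MCD, the mouse with muscle RNA, the count was 1 (Sdf2l1), where 8.38% of all tested genes were lower and 8.58% higher. Without Cre mouse 1 on chow it was 4 (8.74% lower and 8.16% higher among all tested genes).

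**Figure D3:**
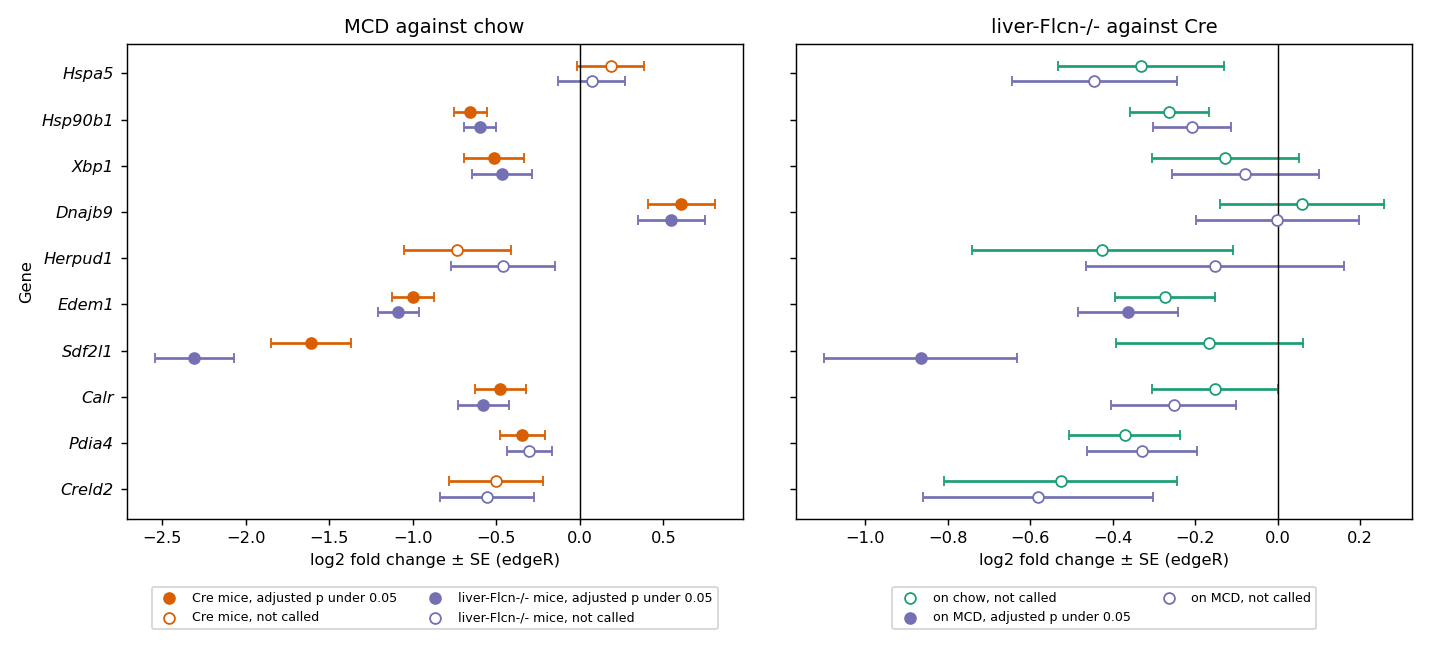
Log2 fold changes of the 10 genes with their standard errors from edgeR, for MCD against chow in each genotype (left) and genotypes compared within each diet (right). Filled points have an adjusted p under 0.05. Sdf2l1, at −1.61 and −2.31, lay farthest from 0 in the diet comparison.

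The interaction, which asks whether the diet response itself differed between genotypes, called none of the 10 by edgeR, limma-voom or DESeq2, and 1 had an unadjusted p under 0.05 (3.29% of all tested genes were higher and 5.54% lower). That gene was Sdf2l1 (log2 fold change −0.70 ± 0.33, adjusted p = 0.186 by edgeR). The median was −0.06 (all tested genes 0.03). Its sign rested on single mice, from −0.16 without Cre mouse 1 on chow to 0.08 without knockout mouse 3 on chow. Without the 5 male chow libraries the median was −0.26. Sdf2l1 passed without Cre mouse 1 on chow (−0.96, adjusted p = 0.0292 by edgeR) and without the 5 male chow libraries (−0.98, adjusted p = 0.0226 by edgeR).

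The 10 genes varied together across mice to differing degrees. With group means removed, the 45 pairs had a median Pearson r of 0.55 over 22 libraries, 41 were above 0 and 25 above 0.5, from −0.30 (Xbp1 and Edem1) to 0.89 (Hspa5 and Creld2). These libraries share depth and sex differences, so the values are descriptions. Over all 22 libraries, each gene was set against the mean z-score of the other 9: Creld2 (0.91), Calr (0.88), Hsp90b1 (0.85), Pdia4 (0.85) and Sdf2l1 (0.80) tracked the others most closely, and Hspa5 (0.45) and Dnajb9 (−0.21) least. This order keeps the differences between groups. In the pairs with group means removed, Hspa5 ranged from 0.19 (with Edem1) to 0.89 (with Creld2). Dnajb9 ranged from 0.09 (with Edem1) to 0.78 (with Creld2), and Edem1 from −0.30 (with Xbp1) to 0.64 (with Pdia4). Outside the 10, the genes most alike to their mean z-score were Dnajb11 (0.95), Pdia3 (0.93), Saa2 (0.92), Saa1 (0.90), Uggt1 (0.90), Pdia6 (0.90), Erp44 (0.89), Hyou1 (0.89), Ik (0.89) and Ints13 (0.89). Of these, Dnajb11, Pdia3, Uggt1, Pdia6, Erp44 and Hyou1 encode ER folding proteins, and Saa1 and Saa2 encode serum amyloid A, secreted by the liver in the acute phase. The log2 fold change of Saa1 on MCD was −3.81 ± 1.04 in Cre and −4.12 ± 1.00 in knockout mice, and that of Saa2 −4.34 ± 1.13 and −4.49 ± 1.09. These genes were chosen for likeness to a score that was itself lower on MCD, so the values are given as a description with no test.

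Sex was examined after the data had been seen, in a model with genotype, diet and sex (log2 fold changes ± SE). On chow, averaged over genotypes, Xbp1, Dnajb9, Herpud1, Sdf2l1 and Creld2 were higher in male mice, 5 of the 10, while 5.38% of all tested genes were higher and 6.46% lower. Herpud1 averaged 429.8 CPM in the 3 male and 205 in the 3 female Cre mice on chow (0.91 ± 0.25 over both genotypes, adjusted p = 0.023 by edgeR), with no overlap between the sexes in Cre mice. Creld2 (0.86 ± 0.20, adjusted p = 0.00876 by edgeR), Sdf2l1 (0.70 ± 0.17, adjusted p = 0.0129), Dnajb9 (0.64 ± 0.14, adjusted p = 0.00572) and Xbp1 (0.46 ± 0.14, adjusted p = 0.0391) followed. Creld2 averaged 52.9 CPM in the male and 24.8 in the female Cre mice on chow, with overlap. The median over the 10 was 0.46 (all tested genes 0.01). On MCD none passed by edgeR and none had an unadjusted p under 0.05, with a median of 0.06, where 0.256% of all tested genes were higher and 0.178% lower. The difference of the diet response between the sexes called none either (4.88% higher and 2.6% lower among all tested genes), although 3 had an unadjusted p under 0.05, of which Dnajb9 came closest (−0.63, adjusted p = 0.0644 by edgeR).

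The chow count rested on few mice. It was 4 in Cre mice alone, where 3.46% of all tested genes were higher and 3.16% lower, and 0 in knockout mice alone (1.31% and 1.32%). It was 0 when knockout mouse 3, a male, was left out (median 0.35, with 3.43% and 3.76% of all tested genes). The count was 3 without Cre mouse 2 (4.32% and 5.54%) or without knockout mouse 4 (4.41% and 5.34%). The shares over all tested genes were also smaller in these fits. The count for the difference in diet response was 2 without Cre mouse 6 on chow (3.70% of all tested genes higher and 1.98% lower). It was also 2 without knockout mouse 1 on chow (2.98% and 1.70%), and 1 without knockout mouse 2 on MCD (4.52% and 2.52%). Because the male chow mice were also those with a low share of uniquely mapped reads, sex and mapping cannot be told apart in this comparison. In Cre mice on chow, the summed CPM of 13 clock genes was also higher in males (405, 532 and 785) than in females (224, 294 and 307). In knockout mice on chow the sexes overlapped (257 and 282 in males, 222, 321 and 379 in females). The part of the clock genes in the sex differences was not tested.

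**Figure D4:**
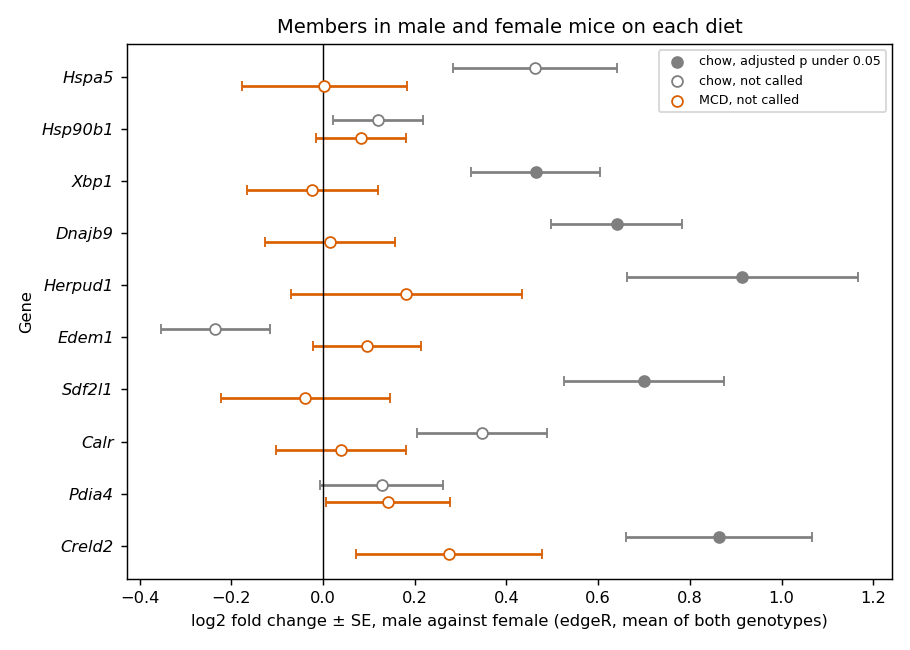
Log2 fold change ± SE of each of the 10 genes in male against female mice, as the mean of both genotypes, on chow (grey) and on MCD (orange). Filled points have an adjusted p under 0.05 by edgeR, which 5 genes reached on chow, from 0.46 for Xbp1 to 0.91 for Herpud1, and none on MCD.

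The wider ER machinery was read through lists that did not include the 10 genes, with log2 fold changes ± SE in parentheses. Apart from the sensors, Atf4 and Ddit3, up to 2 called genes are named per list and comparison. A gene named in 1 genotype may therefore have moved in the other too. The counts stand beside shares of 29.3% higher and 28.2% lower among all tested genes for MCD in Cre mice, and 22.5% in each direction in knockout mice. For counts between genotypes, knockout against Cre, the shares were 5.52% higher and 3.1% lower on chow and 8.06% higher and 8.53% lower on MCD. Among 13 sensors and transcription factors of the unfolded protein response, 6 were higher and 1 lower on MCD in Cre mice (median 0.26), and 4 higher and none lower in knockout mice (0.16). Ddit3 (CHOP), the proapoptotic factor downstream of ATF4, averaged 6.61, 33.8, 8.12 and 24.7 CPM in Cre chow, Cre MCD, liver-Flcn-/- chow and liver-Flcn-/- MCD mice. It rose in Cre (2.35 ± 0.28, adjusted p = 4.55e-07) and knockout mice (1.61 ± 0.28, adjusted p = 9.81e-05 by edgeR). Atf6 rose in both genotypes (0.65 ± 0.12, adjusted p = 0.000127, and 0.83 ± 0.13, adjusted p = 1.67e-05 by edgeR), as did Eif2ak3 (0.87 ± 0.18, adjusted p = 0.000387, and 0.49 ± 0.18, adjusted p = 0.0322 by edgeR). Ern1 fell in Cre mice (−0.57 ± 0.16, adjusted p = 0.00375 by edgeR) and did not pass in knockout mice (−0.04 ± 0.15, adjusted p = 0.851). Atf4 rose in Cre mice (0.39 ± 0.16, adjusted p = 0.0363 by edgeR) and did not pass in knockout mice (0.35 ± 0.16, adjusted p = 0.0771), at the level of its transcript only. Creb3l1, an ER-bound transcription factor of low abundance, rose in Cre mice (1.14, adjusted p = 0.00108) and had a negative interaction (−1.32, adjusted p = 0.0305 by edgeR). Between genotypes, Eif2ak3 was higher in knockout mice on chow (0.69, adjusted p = 0.0204 by edgeR) and no gene of this list passed on MCD.

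Of 16 genes of the PERK-ATF4 arm, 10 rose and 1 fell on MCD in Cre mice (median 1.01), and 8 rose and none fell in knockout mice (0.91). The list is named for PERK, but sensor activity was not measured, and whether these genes rose through PERK was not tested. Asns, asparagine synthetase, averaged 2.65 and 81.7 CPM in Cre mice on chow and MCD and 2.29 and 31.1 in knockout mice (3.76 ± 0.69, adjusted p = 0.000157 in the latter by edgeR). Nupr1, a stress-induced chromatin-associated protein, averaged 1.62 CPM in Cre mice on chow, 78.6 on MCD, 16.8 in knockout mice on chow and 180.9 CPM on MCD. It rose with MCD in Cre mice (5.57 ± 0.45, adjusted p = 1.79e-09 by edgeR) and was higher in knockout than Cre mice on chow (3.35 ± 0.43, adjusted p = 2.23e-05 by edgeR), with a negative interaction (−2.15 ± 0.55, adjusted p = 0.0199 by edgeR). Slc7a11, the cystine transporter, was close to 0 on chow (0.0247 and 0.0218 CPM), so no fold against chow is given. On MCD it averaged 4.39 CPM in Cre and 1.28 in knockout mice, and was lower in knockout mice (adjusted p = 0.0156 by edgeR). Gdf15, a stress hormone, was higher in knockout mice on chow (2.59, adjusted p = 0.000141 by edgeR), Fgf21, a hepatic hormone, was lower in knockout mice on MCD (−1.59, adjusted p = 0.0129 by edgeR), and Atf3 had a negative interaction (−1.98, adjusted p = 0.00307 by edgeR). Between genotypes 2 of the 16 were higher and none lower on chow, and 1 was higher and 3 lower on MCD.

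Folding genes outside the 10 were also called in both directions. Of 15 tested chaperones and cochaperones (16 listed), 4 rose and 5 fell on MCD in Cre mice (median −0.20) and 3 rose and 6 fell in knockout mice (−0.17). Dnajc10 (ERdj5), a reductase that works with BiP and EDEM1, rose in both genotypes (0.71 and 0.81) and was higher in knockout than Cre mice on chow (0.65 ± 0.10, adjusted p = 0.000243) and on MCD (0.75 ± 0.10, adjusted p = 3.45e-05 by edgeR). It was the only gene of this list called between genotypes. Cdnf, a secreted ER protein of the MANF family at 1.49 CPM, rose by 1.56 and 1.77. Of 18 disulfide isomerases and oxidoreductases, 3 rose and 9 fell in Cre mice (median −0.24) and 3 rose and 8 fell in knockout mice (−0.19). P4hb (PDI), also a subunit of prolyl 4-hydroxylase and of the lipid transfer protein of lipoprotein assembly, rose in Cre mice (0.89 ± 0.09, adjusted p = 6.79e-08 by edgeR). Its mean rose with MCD in both genotypes, from 1882 to 3481 CPM in Cre mice and from 1702 to 2559 CPM in knockout mice. On MCD it was lower in knockout than Cre mice (−0.44 ± 0.09, adjusted p = 0.00208 by edgeR). Pdia6 fell in knockout mice (−1.02 ± 0.13, adjusted p = 1.87e-06) and was lower than in Cre mice on MCD (−0.47 ± 0.13, adjusted p = 0.0154 by edgeR). In Cre mice its mean also went down, from 334 CPM on chow to 204 CPM on MCD. Creld1 fell in Cre mice (−0.83, adjusted p = 1.73e-06), Txndc12 rose in knockout mice (0.90, adjusted p = 3.36e-08), and Prdx4 (−0.33, adjusted p = 0.0277) and Erp44 (−0.28, adjusted p = 0.0269) were lower in knockout mice on chow by edgeR. Between genotypes 0 rose and 2 fell on chow, and 1 rose and 2 fell on MCD in this list.

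Degradation, translocation and export genes were called in both directions on MCD. Of 25 genes of ER-associated degradation, 9 rose and 6 fell in Cre mice (median −0.02) and 7 rose and 2 fell in knockout mice (0.05). Derl1 and Derl2 encode related membrane proteins of the retrotranslocation complex and moved in opposite directions in Cre mice: Derl1 rose (0.81 ± 0.09, adjusted p = 1.71e-07 by edgeR) and Derl2 fell (−1.21 ± 0.09, adjusted p = 5.9e-10 by edgeR). Derl1 also rose in knockout mice (0.87), and Derl2 was lower in knockout than Cre mice on chow (−0.47) with a positive interaction (0.55, adjusted p = 0.0102 by edgeR). In knockout mice the mean of Derl2 went down with MCD as well, from 123 to 77.7 CPM. Stub1, a ubiquitin ligase, rose in knockout mice (0.88), and Rnf139, another, was higher in knockout than Cre mice on MCD (0.36, adjusted p = 0.01 by edgeR). The mean of Stub1 also went up in Cre mice, from 56.1 CPM on chow to 96.6 CPM on MCD. Between genotypes 1 of the 25 was lower on chow, and 1 was higher and 1 lower on MCD.

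Of 29 translocation and N-glycosylation genes, 12 rose and 4 fell in Cre mice (median 0.20) and 11 rose and 4 fell in knockout mice (0.14). Pgm3 (2.33 ± 0.24, adjusted p = 7.74e-08 in Cre mice by edgeR, 2.27 in knockout mice) and Gfpt1 (1.10 in Cre mice) encode enzymes of the hexosamine pathway, which supplies the sugar donor and is a known XBP1 target. Ssr2 rose in knockout mice (0.64) and was lower than in Cre mice on chow (−0.34), as was Sec61b (−0.44). With MCD the mean of Ssr2 also went from 99.2 to 144 CPM in Cre mice, and that of Gfpt1 from 22.6 to 34.7 CPM in knockout mice. On MCD 7 of the 29 were lower in knockout mice and none higher (8.53% of all tested genes were lower), Sec61g (−0.44, adjusted p = 0.0405) and Spcs3 (−0.32, adjusted p = 0.0371 by edgeR) farthest. Without Cre mouse 3 on MCD 11 were lower, and Spcs3 did not pass (−0.25, adjusted p = 0.102 by edgeR). On chow 3 were lower and none higher (3.1% of all tested genes were lower).

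Of 22 export and retrieval genes, 11 rose and 4 fell in Cre mice (median 0.23) and 9 rose and 1 fell in knockout mice (0.14). Sar1b, the COPII GTPase needed for lipoprotein export, fell in Cre (−1.31 ± 0.08, adjusted p = 7.91e-11) and knockout mice (−0.84 ± 0.08, adjusted p = 6.69e-08 by edgeR), was lower in knockout than Cre mice on chow (−0.64 ± 0.08, adjusted p = 2.25e-05 by edgeR) and had a positive interaction (0.47, adjusted p = 0.0154). Kdelr3, a receptor that returns escaped ER proteins, averaged 0.257, 3.44, 0.389 and 0.844 CPM in Cre chow, Cre MCD, liver-Flcn-/- chow and liver-Flcn-/- MCD mice, with a rise in Cre mice (adjusted p = 1.66e-06) and a negative interaction (adjusted p = 0.025 by edgeR). Sec13 rose in knockout mice (0.61), and Kdelr2 was lower in knockout than Cre mice on MCD (−0.33, adjusted p = 0.0209 by edgeR). The mean of Sec13 also went up in Cre mice, from 64.2 CPM on chow to 101 CPM on MCD. On chow 1 of the 22 was lower in knockout mice, and on MCD 4 were lower and none higher.

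Without Cre mouse 3 on MCD, genotype counts on that diet also moved in other lists: of the PERK-ATF4 arm none was higher and 4 lower (Nupr1, higher with all mice, had an adjusted p of 0.0536 by edgeR), 4 disulfide isomerases and oxidoreductases, 2 chaperones and 2 degradation genes were lower, and 1 sensor or factor was higher (Ern1) and 1 lower (Atf4). Among all tested genes 8.38% were lower and 8.58% higher in that fit.

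In the interaction, 1 sensor or factor (Creb3l1), 1 export gene (Kdelr3) and 2 genes of the PERK-ATF4 arm were lower, 1 degradation gene (Derl2) and 1 export gene (Sar1b) were higher, and the chaperone, disulfide isomerase and translocation lists had none. Among all tested genes the interaction called 5.54% lower and 3.29% higher.

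**Figure D5:**
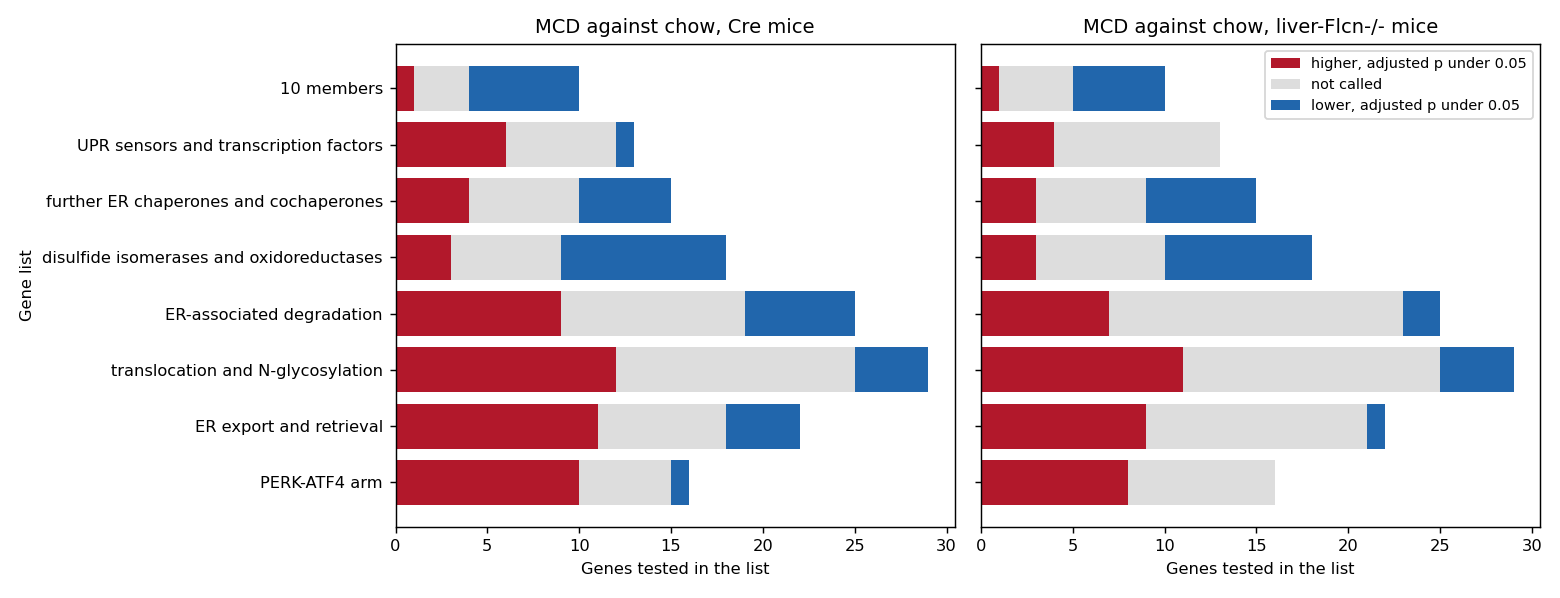
Number of tested genes of the 10 and of the 7 ER lists that were higher, lower or not called on MCD (stacked bars, adjusted p under 0.05 by edgeR), in Cre mice (left) and knockout mice (right). In the PERK-ATF4 arm 10 of 16 and 8 of 16 were higher, and of the 10 genes 6 and 5 were lower.

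Promoters with the same motifs were counted among the other tested genes. Of 13 other tested genes with an ERSE match, 2 were higher and 6 lower on MCD in Cre mice (46.2% lower, against 28.2% of all tested genes), and none was higher and 4 lower in knockout mice (30.8%, against 22.5%). Of 8 with ERSE-II, 5 were lower in Cre mice (62.5%) and 3 in knockout mice (37.5%), and 1 was higher in each (12.5%). Of 111 with the core of the unfolded protein response element, 43 were higher (38.7%) and 26 lower (23.4%) in Cre mice. In knockout mice 28 were higher (25.2%) and 20 lower (18%). Among all tested genes 29.3% were higher in Cre mice and 22.5% in knockout mice. Among the 10 genes themselves, Hsp90b1 and Calr, with ERSE, fell in both genotypes, while Hspa5 and Creld2, also with ERSE, did not pass, and Edem1 and Sdf2l1, with none of the 3 motifs in the window, fell most.

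Markers of liver cell types were read beside these results, and their part in the results was not tested (log2 fold changes in parentheses). Of the 9 hepatocyte markers, 7 fell on MCD in Cre mice and 6 in knockout mice, among them Alb (−0.46 and −0.59), Ttr (−1.28 and −0.68) and Fgb (−1.09 and −1.10), and their summed CPM had a median of 136577 in Cre mice on chow, 99262 on MCD, 121994 in knockout mice on chow and 74665 on MCD. Between genotypes Ttr (−0.46) and Pck1 (−0.89) were lower in knockout mice on chow and Pck1 (−0.85) on MCD, where it did not pass without Cre mouse 3 (−0.53, adjusted p = 0.14 by edgeR). Of 10 plasma and B cell markers 7 were tested. Prdm1 (1.42) rose in Cre mice, and Ighm (−3.42), Igkc (−1.82), Jchain (−2.06) and Cd79a (−1.08) fell in knockout mice. Without Cre mouse 3 on MCD, 3 also fell in Cre mice, namely Ighm (−1.18, adjusted p = 0.0136), Igkc (−0.93, adjusted p = 0.0459) and Jchain (−1.28, adjusted p = 0.0187 by edgeR), and 5 fell in knockout mice. Ighm was higher in knockout than Cre mice on chow (2.04). On MCD Ighm was 72.4 CPM in Cre mouse 3, the mouse with muscle RNA, and 2.28 to 7.62 CPM in the other 4 Cre mice, and its genotype difference there (−2.13) was −0.20 without that mouse (adjusted p = 0.775 by edgeR). The summed medians were 39.3, 24.8, 97.1 and 17.7 CPM in Cre chow, Cre MCD, liver-Flcn-/- chow and liver-Flcn-/- MCD mice. Igkc and Ighm were most abundant, and the defining plasma cell genes Mzb1 and Tnfrsf17 had at most 8 and 3 counts in any library.

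Of 10 stellate cell markers, led by Dcn, 7 rose on MCD in Cre mice, among them Col1a1 (2.67) and Acta2 (2.09), and 6 were lower in knockout than Cre mice on MCD, where Sdf2l1 and Edem1 were also lower. Without Cre mouse 3 on MCD these counts were 6 and 4. Des, also a muscle gene, was 146 CPM in that mouse and 5.99 to 15.3 CPM in the other 4, and its rise in Cre mice (2.83) was 0.78 without it (adjusted p = 0.0141 by edgeR). In knockout mice Dcn (0.37) rose and Col3a1 (−0.89) fell. The summed stellate medians were 387, 676, 467 and 453 CPM in Cre chow, Cre MCD, liver-Flcn-/- chow and liver-Flcn-/- MCD mice, an order kept for the medians that follow. Of 10 macrophage markers, led by Clec4f and Cd5l, 4 rose and 2 fell in Cre mice, 1 rose and 4 fell in knockout mice, and between genotypes on MCD 1 was higher and 3 lower, among them Cd68 (−0.73) and Lyz2 (−0.86), with summed medians of 561, 626, 645 and 432 CPM. Of 8 endothelial markers, led by Stab2 and Clec4g, 2 rose and 4 fell in Cre mice and 5 fell in knockout mice (215, 173, 243 and 190.01 CPM). Of 6 tested bile duct markers, led by Spp1 (1.39 in Cre mice), 3 rose in Cre mice, none in knockout mice, and 2 were higher in knockout than Cre mice on each diet, or 1 on MCD without Cre mouse 3 (57.5, 134, 117 and 125 CPM). Of 6 tested T and NK cell markers, none was called in Cre mice and 4 fell in knockout mice (5.32, 5.81, 8.26 and 4.01 CPM). Of 12 pancreatic acinar markers 2 were tested. Cela1, the most abundant, fell in both genotypes (−1.83 and −1.12) and made up most of the summed CPM (medians 48.4, 14.9, 22.2 and 11.1). Ctrb1, at 0 counts in Cre mice on chow, averaged 1.38 CPM in Cre mice on MCD. In knockout mice on MCD it averaged 1.81 ± 4.23 CPM (SD), where mouse 3 had 56.6 summed acinar CPM and the others 7.98 to 11.7. Amy2a5 had 0 counts in every library, and the other untested acinar markers had higher means on MCD in both genotypes.

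All 10 skeletal muscle genes were higher on MCD in Cre mice, with 2883 summed CPM in Cre mouse 3 on MCD. Without that mouse 7 of the 10 muscle genes were called higher, and 8 of the 10 ER genes were called for MCD in Cre mice, 1 higher and 7 lower, including all 7 called with it, where 29.4% of all tested genes were higher and 29.1% lower. Collection time is not given in the sources used here, so clock genes were read as well: of 13, Ciart (2.48) and Per1 (1.42) rose and Clock (−0.51) and Npas2 (−1.49, adjusted p = 0.0636 by edgeR without Cre mouse 3 on MCD) fell in Cre mice, Ciart (2.93) and Per1 (1.56) rose and Clock (−0.39) fell in knockout mice, and none was called between genotypes. The median of the 13 for knockout against Cre mice was −0.62 on chow and −0.43 on MCD (all tested genes −0.03 and −0.01). Nr1d1 was the most abundant in Cre mice on chow. Their part in the differences of the 10 genes was not tested.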

How the data were processed

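Liver mRNA-seq was measured in 22 mice. The authors prepared single-end libraries with adapters carrying molecular identifiers, trimmed reads with Trimmomatic, aligned them with STAR to GRCm38, and counted them per gene with HTSeq (tools and build per the labels and methods). They deposited raw counts, as whole numbers without normalization. Annotation release, strand setting and collapsing of identifiers are not given in the sources used here, so counts were treated as reads, and counts of overlapping or antisense genes may not be separable. Of the table's columns, 0 lacked a sample label. Nothing states that the mice came from separate litters or cages, so p-values measure the spread between these mice.

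From these counts, edgeR 4.0.16 (R 4.3.3) fitted the 4 groups in 1 model for genes averaging at least 10 counts, with TMM scaling, two-sided quasi-likelihood tests and Benjamini-Hochberg adjustment over 14062 genes (threshold 0.05). Log2 fold changes are given ± SE. CPM used TMM-scaled totals. Pearson correlations used log2 CPM with a prior count of 2, and exact permutation tests log2(CPM + 0.5). The scripts were tested on simulated data. Alternatives used limma 3.58.1 (voom), DESeq2 1.42.0, RLE factors, library totals only, other filters, sex, a replicate block, and omission of each mouse. The sex and totals-only alternatives, list counts without the mouse with muscle RNA, and the promoter description were added after seeing the data. Positions and exon lengths came from GENCODE M21 and promoters from RefSeq.

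The members and lists were chosen with earlier results of these data known. Genes named were the 10 members, Flcn, Ern1, Eif2ak3, Atf6, Atf4 and Ddit3, then for each ER list and comparison up to 2 called genes, those farthest from 0 in log2 fold change, with a mean of at least 1 CPM, the 10 genes most alike to the members' mean z-score, and, from marker and clock lists, the most abundant gene and called genes. Genes whose mean lay below 10 counts were not tested.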

Additional observations from a re-analysis of the deposited data

Results flagged for a closer look

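In 44 sets of values (11 genes in 4 groups), 2 held a mouse far from the rest of its group, which chance alone gives in about 1 of 20 sets. Both were liver-Flcn-/- mouse 3 on chow, a male. Herpud1 was 408 CPM there and at most 220.2 CPM in the other mice of the group, a gap of 0.777 of the group's range. Dnajb9 was 108 CPM there and at most 71.7 CPM in the others, a gap of 0.714 of the range. The 2 values come from the same library and are not independent.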

How the results depend on the processing

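Among differences that passed in the reported fit or under the setting tried, direction reversed once over 12 alternatives and 22 fits that each left out 1 mouse. Differences that passed in neither also changed sign, such as Hspa5 with MCD in Cre mice, −0.12 in males alone. Pdia4 in Cre mice changed from lower to 0.0785 (log2, MCD against chow) with scaling by library totals alone, where it did not pass. The count of genes lower in liver-Flcn-/- than Cre mice on MCD was 2 of 10, where 8.53% of all tested genes were lower. It was 1 without a filter on low counts (3.33% of all tested genes lower) and 5 with only the groups compared in the fit (7.39%). It was also 5 without the 5 male chow libraries, also those with a low share of unique mapping (10.2%). It was 1 in female mice (7.83%) and 1 with library totals alone (8.11%). In male mice, where fewer mice were compared, it was 0 (3.01%). The interaction, with 0 calls, gave 1 without those 5 chow libraries (3.29% of all tested genes lower and 2.19% higher). In female mice it also gave 1 (5.50% lower and 3.15% higher). MCD against chow in Cre mice, with 7 calls, gave 4 in male mice (18.5% of all tested genes higher and 15.04% lower), and male against female mice on chow, with 5, gave 0 in liver-Flcn-/- mice alone (1.31% higher). The causes of the other changes were not tested. Leaving out 1 mouse gave 6 to 8 calls for MCD in Cre mice (27.5 to 29.4% of all tested genes higher, 26.2 to 29.1% lower). In liver-Flcn-/- mice it gave 4 to 8 (19.6 to 23.6% higher, 20.2 to 23.6% lower). Between genotypes on chow it gave 0 to 1 (3.55 to 6.33% higher, 1.21 to 3.94% lower). On MCD that count was 1 to 4 (6.32 to 8.58% higher, 6.04 to 8.92% lower). The interaction had 0 to 1 (1.94 to 4.13% higher, 3.76 to 6.25% lower). Male against female mice had 0 to 6 on chow (3.43 to 6.11%, 3.66 to 7.01%). On MCD they had 0 to 0 (0.043 to 1.51%, 0.0358 to 0.413%). The difference of the diet response between sexes had 0 to 2 (2.98 to 6.09%, 1.47 to 3.70%). RLE factors changed no call. The 4 calls between genotypes on MCD came without Cre mouse 1 on chow.

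With a replicate block in the fit, the count between genotypes on MCD was 1 (Edem1 was lost, adjusted p = 0.114 by edgeR). The share lower among all tested genes was smaller there too (6.36%, against 8.53%). The counts of the other 4 comparisons did not change. The labels do not say that a number marks a shared litter or day, and same-numbered mice deviated together with a mean correlation of −0.08 to 0.13 over the pairs of groups, so the mice share only a number. The lowest count of these genes in any library was 113, and the effect of depth was not tested.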
